A study of Mus musculus with 4 samples.

Results

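The cells described here are alveolar macrophages, the resident macrophages of the air spaces, and they number 229 of 15793 cells from lungs of LAIR1KO and WT mice. A cell was taken as a member when a UMI (unique molecular identifier, a counted transcript molecule) was found for 3 or more of the 6 genes Ear1, Plet1, Krt79, Siglecf, Chil3 and Atp6v0d2. Members also had no UMI of the endothelial gene Cdh5 and fewer than 10 UMIs summed over C1qa, C1qb and C1qc, the complement genes that mark interstitial macrophages. Cells with fewer than 300 genes or more than 10% of UMIs from mitochondrial genes were not counted. RNA of dissociated lung was measured in droplets in 4 groups, named by the labels as LAIR1KO with B16/F10 tumors, WT with B16/F10 tumors, LAIR1KO normal lung and WT normal lung. B16/F10 is a mouse melanoma line that colonises the lung. Each group was a single library of 3 hashtagged replicates, each taken here as 1 animal, so that library and group cannot be told apart. The labels used here give no strain, age, sex, time after tumor transfer or way in which Lair1 was inactivated.

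Alveolar macrophages settle in the lung before and around birth and renew themselves there, largely without blood monocytes. GM-CSF from the alveolar epithelium, together with TGF-beta, keeps them in their state through the lipid-sensing nuclear receptor PPAR-gamma, and they take up and break down spent surfactant. Interstitial macrophages lie in the lung tissue around airways and vessels, carry much MHC class II and complement C1q, and depend on CSF1. LAIR1, the protein missing in the mutant, is an inhibitory receptor of leukocytes that binds collagen.

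The members lay mostly in the tumor-bearing libraries, with 115 in LAIR1KO and 105 in WT, against 7 in LAIR1KO normal and 2 in WT normal lung. Of the 229 members, 100 had all 6 genes of the choice, 87 had 5, 31 had 4 and 11 had 3. Just outside the choice, 36 cells had 2 of the genes, 30 cells with 3 or more were left out for a Cdh5 UMI and 2 for their C1q, while the highest summed C1q among members was 3 UMIs and 171 members had 0. In the tumor-bearing libraries the members were deeper than the 857 LAIR1KO and 842 WT interstitial macrophages, their median depth being 8474 UMIs in LAIR1KO and 8679 in WT, against 5182 in LAIR1KO and 5437.5 in WT interstitial macrophages. At an equal depth of 2000 UMIs the gap was small: 1079.5 genes per alveolar macrophage in LAIR1KO and 1110.0 in WT, against 1035 in LAIR1KO and 1045 in WT interstitial macrophages.

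Markers of other cells were scarce in the members but not all at 0. The 7 eosinophil and mast cell markers and the 5 erythroid markers had no UMI in any of the 6 tumor-bearing animals' members, while every other list had members that were detected. Of 9 monocyte markers 8 were detected (Ly6c2 was at 0), and their sum was 3.86 to 4.12 per 10000 UMIs of the member cells in LAIR1KO and 4.53 to 5.54 in WT. Of the 4 with enough UMIs to compare, 1 was at least 4-fold higher than in interstitial macrophages in all 6 animals, and 2 were at least 4-fold lower. Of 8 neutrophil markers 7 were detected (Ly6g was at 0), at 1.95 to 2.15 per 10000 in LAIR1KO and 1.56 to 2.37 in WT. Dendritic cell markers were detected for 3 of 8 and melanoma markers for 3 of 6, at no more than 0.161 and 0.0449 per 10000 in any animal. All 7 markers of the alveolar type 2 epithelium, the surfactant-making cells, were detected, at 1.66 to 2.53 per 10000 in LAIR1KO and 3.23 to 4.27 in WT. All 8 fibroblast and pericyte markers were detected as well, at 1.08 to 12.98 per 10000 in LAIR1KO and 0.781 to 3.43 in WT. Over the series, 25216301 to 28034709 gene UMIs were counted per library, 27 cell barcodes were shared by a pair of libraries and none of these was an alveolar macrophage in both. The LAIR1KO groups and the WT tumor-bearing group were female by their own transcripts (X-inactivating Xist at 1119.5 to 1374 CPM), whereas WT normal lung was male (Ddx3y, a Y-linked helicase, 185 to 202 CPM), so that tumor and sex cannot be told apart in WT, nor genotype and sex in normal lung.

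The targeted gene was examined first. Lair1 (mm10, chromosome 7, 4003402 to 4063204, minus strand) had 0 UMIs in the alveolar macrophages of each of the 3 LAIR1KO tumor-bearing animals, against 61.2, 48.3 and 48.3 CPM in the WT animals, where CPM is the UMIs of a gene per 1000000 UMIs summed over the member cells of an animal. The groups did not overlap, and with a floor of 3 UMIs over the group the level was at least 15.1-fold lower in LAIR1KO (0 against 40 UMIs). A Lair1 UMI was present in 0 of 115 LAIR1KO members, which allows a share of up to 2.61%, and in 45 of 105 WT members (42.9%). Interstitial macrophages gave 1 of 857 cells in LAIR1KO and 506 of 842 cells (60.1%) in WT, at the lower depth given above. The alveolar level in each WT animal was below that of its interstitial macrophages, which had 196, 219 and 161 CPM in the same order. Both normal libraries held few members: 0 of 7 in LAIR1KO and 1 of 2 in WT had a Lair1 UMI.

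Alveolar macrophages made up a larger part of the cells in every tumor-bearing animal than in any normal animal. Counting only cells with a single hashtag, they were 3.10%, 5.49% and 4.19% of cells in the LAIR1KO tumor-bearing animals, against 0.459%, 0.388% and 0% in the LAIR1KO normal animals (4.26 ± 1.20% and 0.283 ± 0.247%, SD, n = 3 each). In WT they were 4.399%, 3.66% and 3.53% of cells in the tumor-bearing animals, against 0%, 0% and 0.150% in the normal animals (3.86 ± 0.470% and 0.0501 ± 0.0868%, SD, n = 3 each). All 3 tumor-bearing animals lay above all 3 normal animals in both genotypes, and an exact two-sided permutation test gave p = 0.1 for each, the smallest value that 3 against 3 animals allow (0.2 adjusted by Benjamini-Hochberg over the 4 contrasts). The values of 0 rest on 585 cells in LAIR1KO normal replicate 3 and on 591 and 514 cells in WT normal replicates 1 and 2, which allow shares of up to 0.513%, 0.508% and 0.584%. Between genotypes the animals overlapped in tumor-bearing lung (difference 0.397 percentage points, exact permutation p = 0.7, adjusted 0.7), and the sign of that difference turned without LAIR1KO tumor-bearing replicate 2 (-0.219 points). In normal lung the genotypes differed by 0.232 points (exact permutation p = 0.4, adjusted 0.533), a contrast of female LAIR1KO with male WT animals.

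**Figure D1:**
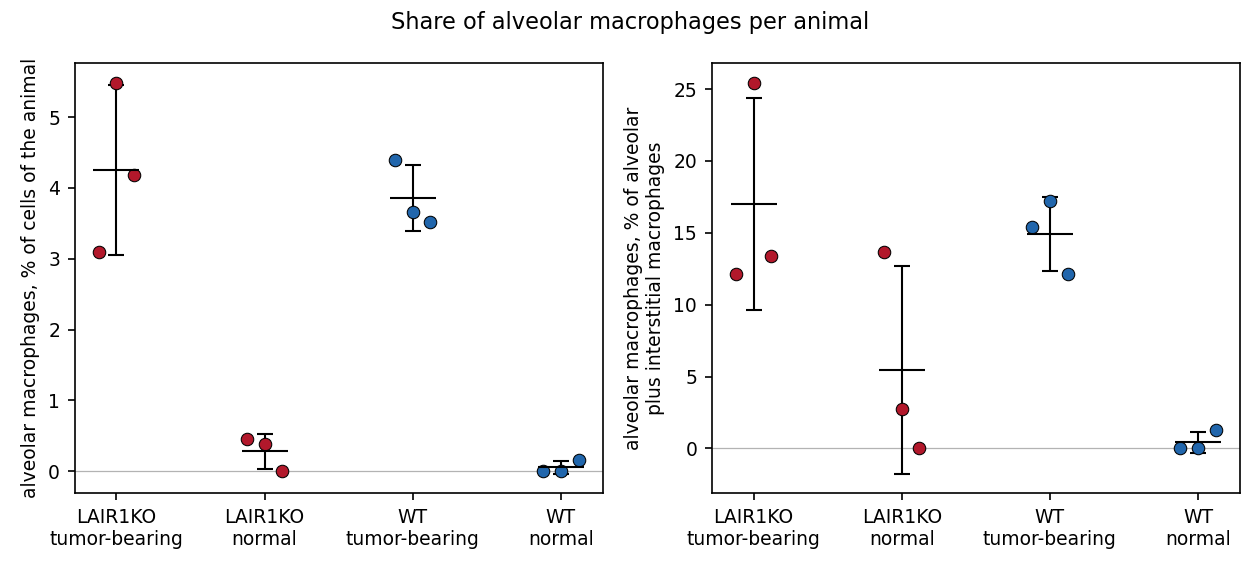
Each point is 1 animal, in 4 groups along the horizontal axis with LAIR1KO in red and WT in blue. The vertical axes give alveolar macrophages as percent of all cells of the animal (left) and as percent of its alveolar plus interstitial macrophages (right), and bars give the mean ± SD of 3 animals. On the left all tumor-bearing animals lie between 3.10% and 5.49% and all normal animals at or under 0.459%; on the right LAIR1KO normal replicate 1, at 13.6%, lies among the tumor-bearing animals.

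Measured against macrophages alone, the tumor-bearing and normal animals were apart in WT and overlapped in LAIR1KO. Alveolar macrophages were 12.1%, 25.5% and 13.4% of alveolar plus interstitial macrophages in the LAIR1KO tumor-bearing animals, against 13.6%, 2.75% and 0% in the LAIR1KO normal animals, and these groups overlapped (exact permutation p = 0.3, adjusted 0.533). WT tumor-bearing animals had 15.4%, 17.2% and 12.1%, against 0%, 0% and 1.27% in WT normal animals, with no overlap (exact permutation p = 0.1, adjusted 0.4). LAIR1KO normal replicate 1 held 22 macrophages with a single hashtag, and 52.1% of the interstitial macrophages of its library had no hashtag call, against 22.5%, 26.1% and 22.6% in the LAIR1KO tumor-bearing, WT tumor-bearing and WT normal libraries. The part of hashtag loss in these shares was not tested.

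The genes of the choice give the scale of the difference between the macrophage types in the 6 tumor-bearing animals, and since they chose the cells they are given as values only. Chil3 (mm10, chromosome 3, 106147554 to 106167564, minus strand), which encodes the chitinase-like lectin Ym1, lay between 8976 and 11254 CPM (median 9745) in alveolar macrophages, against 3.502 to 9.15 CPM (median 6.02) in interstitial macrophages. Ear1, an eosinophil-associated ribonuclease, lay between 574 and 926 CPM (median 859), against 0 CPM in all 6 animals' interstitial macrophages. For Plet1, a surface protein of placental and epithelial cells that this macrophage also carries, the values were 1166 to 1784 CPM (median 1600.3), against 0 to 10.1 CPM (median 2.21). Atp6v0d2, a subunit of the proton pump of lysosomes, ranged 399 to 559 CPM (median 422), against 2.03 to 8.46 CPM (median 5.82). Krt79, a keratin, reached 257 to 446 CPM (median 394), and the sialic acid receptor Siglecf 103 to 197 CPM (median 145), with medians of 0 CPM in interstitial macrophages. None of the 6 genes overlapped between the cell types. The choice itself sets this, since interstitial macrophages were allowed at most 1 of the 6 genes.

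Genes outside the choice repeated this separation. Of 6690 genes whose mean reached 20 CPM in either type, the 6 genes of the choice, C1q and Cdh5 left out, 211 (3.15%) were at least 4-fold higher and 204 (3.05%) at least 4-fold lower in alveolar macrophages in all 6 animals; with at least 2-fold these were 496 (7.41%) and 481 (7.19%). As the cells were chosen by their genes, these counts describe the contrast and were not tested. All 20 of a list of further alveolar macrophage genes were among the higher ones (median log2 difference 5.19, against 0.12 over all genes described). Several lists by role given below share members with this list, such as Pparg, Marco, Ctsk, Il18 and Itgax, and are not independent of it. Ear2, a second ribonuclease of that family, stood at 1646 to 2465 CPM (median 2115) in alveolar macrophages, against 1.08 to 22.9 CPM (median 9.75) in interstitial macrophages. The whey-acidic-protein family member Wfdc21 lay at 415 to 1096 CPM (median 762), against 1.13 to 8.23 CPM (median 2.09). Car4, a carbonic anhydrase anchored to the cell surface, had 392 to 799 CPM (median 454), against 0.915 to 2.33 CPM (median 1.58), and the intermediate filament Krt19 373 to 524 CPM (median 404), against 0 to 11.0 CPM (median 2.18). Cd9, a tetraspanin, was 5368 to 6303 CPM (median 5665), against 193 to 309 CPM (median 224) (log2 difference 4.61 ± 0.22, SD over 6 animals). In every one of these genes, picked by their ratio or as known markers, the lowest alveolar value was above the highest interstitial value.

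**Figure D2:**
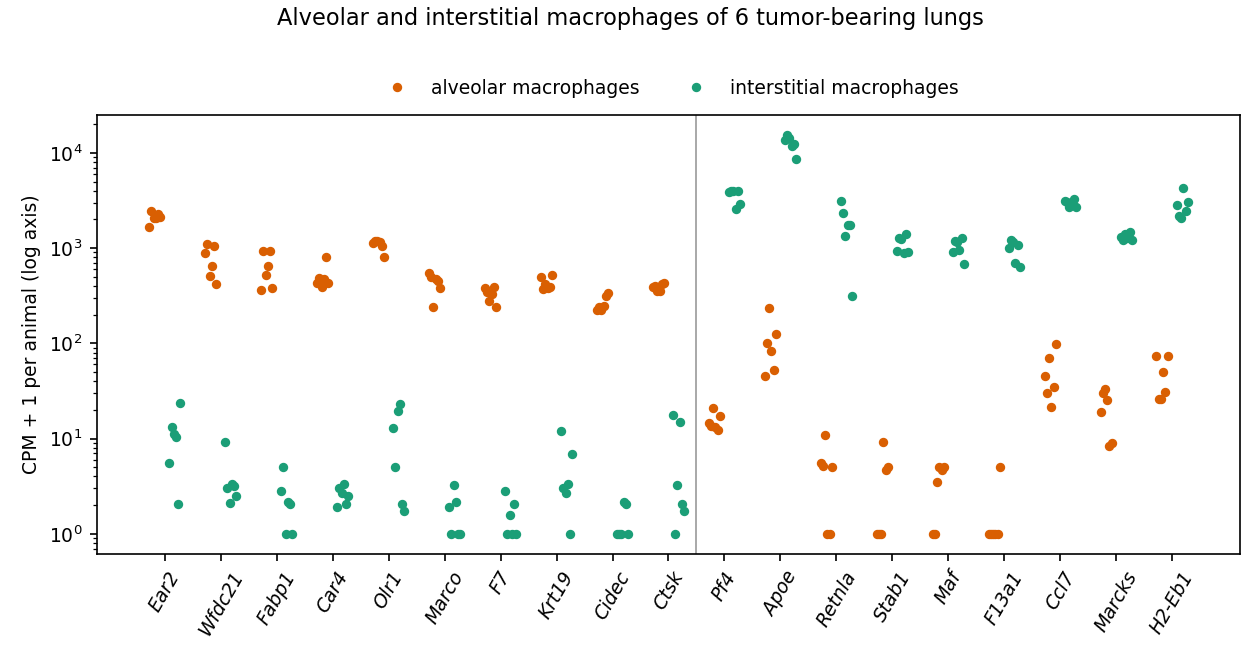
Each point is 1 of the 6 tumor-bearing animals, with alveolar macrophages in orange and interstitial macrophages in green. The vertical axis gives CPM + 1 on a log scale for the 10 genes with the highest and 9 of the 10 with the lowest mean log2 ratio among genes with at least 100 CPM in the higher type. In all 19 genes the points of the cell types do not overlap, which follows from picking genes by this ratio.

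Ear1 and Ear2 belong to the same gene family on chromosome 14, and their promoters are shown because they differ in so few letters. The 250 bases before each start are from RefSeq on GRCm38.p6, printed 5′ to 3′ on the gene's own strand, with capitals where the aligned letters differ (2 of 248 aligned letters, 99.2% identical). Ear1 is at chr14:43819640-43819889 on the minus strand and Ear2 at chr14:44102404-44102653 on the plus strand.
Ear1: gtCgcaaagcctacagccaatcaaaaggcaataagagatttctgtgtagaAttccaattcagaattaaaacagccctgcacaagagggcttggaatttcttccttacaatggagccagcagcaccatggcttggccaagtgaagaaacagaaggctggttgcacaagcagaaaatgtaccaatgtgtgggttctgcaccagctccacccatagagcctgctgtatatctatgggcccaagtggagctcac
Ear2: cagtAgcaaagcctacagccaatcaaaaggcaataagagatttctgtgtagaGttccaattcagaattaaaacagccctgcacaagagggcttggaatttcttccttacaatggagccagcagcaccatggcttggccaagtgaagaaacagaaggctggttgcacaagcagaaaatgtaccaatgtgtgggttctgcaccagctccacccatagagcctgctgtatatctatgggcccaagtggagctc
In the members with a single hashtag Ear1 had 720 UMIs in LAIR1KO and 599 in WT, and Ear2 had 1785 in LAIR1KO and 1657 in WT. Interstitial macrophages with a single hashtag had 0 UMIs of Ear1 and 69 of Ear2. With or without a single hashtag, 2 of 857 interstitial macrophages in LAIR1KO and 2 of 842 in WT tumor-bearing lung had an Ear1 UMI. The related Ear6 had 11 UMIs in LAIR1KO and 3 in WT members, whereas Ear10 and Ear14 had 0 in both. How reads were shared among these near-identical genes in the counting was not tested, so their split is uncertain.

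Most of a list of interstitial macrophage genes was lower in alveolar macrophages. Of 18 interstitial macrophage genes 16 were at least 4-fold lower in all 6 animals (median log2 difference -5.43), and the complement receptor C5ar1 and the endotoxin co-receptor Cd14 were not. Apoe, the apolipoprotein that carries lipid out of cells, had 44.9 to 235 CPM (median 90.6) in alveolar macrophages, against 8636 to 15571 CPM (median 12982) in interstitial macrophages. The platelet-factor chemokine Pf4 had 11.2 to 19.97 CPM (median 12.95), against 2544 to 4018 CPM (median 3907). Retnla, a secreted protein of alternatively activated macrophages, had 0 to 9.99 CPM (median 4.09), against 311 to 3133 CPM (median 1751). Stab1, a scavenger receptor, had 0 to 8.17 CPM (median 1.86), against 888 to 1396 CPM (median 1084), and the coagulation subunit F13a1 0 to 4.03 CPM (median 0), against 637 to 1205 CPM (median 1037). Marcks, a substrate of protein kinase C at the membrane, had 7.43 to 32.5 CPM (median 21.2), against 1216 to 1484 CPM (median 1301).

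Growth factor receptors and transcription factors differed in both directions. Of 20 genes of that list, which also holds the carbonic anhydrase Car4, 4 were at least 4-fold higher in alveolar macrophages in every animal (Pparg, Bhlhe40, Bhlhe41 and Car4) and 3 were lower, among them Csf1r and Maf, with a list median of 0.83 on the log2 scale. Csf1r, the receptor for CSF1, was 69.4 to 126 CPM (median 90.0) in alveolar macrophages, against 942 to 1188 CPM (median 1087) in interstitial macrophages (log2 difference -3.54 ± 0.39). Csf2rb, the signalling chain of the GM-CSF receptor, was 253 to 372 CPM (median 328), against 42.02 to 77.8 CPM (median 60.002) (log2 difference 2.43 ± 0.47), and its ligand-binding chain Csf2ra 233 to 331 CPM (median 272), against 144 to 194 CPM (median 175). The GM-CSF receptor was thus higher and the CSF1 receptor lower in alveolar macrophages of all 6 animals. Pparg, the nuclear receptor downstream of GM-CSF, was 123 to 222 CPM (median 156), against 3.502 to 12.9 CPM (median 7.53), and its partner Rxra 60.4 to 123 CPM (median 90.2), against 25.1 to 35.7 CPM (median 32.6). Bhlhe40 and Bhlhe41 are repressors that bind E-boxes and hold alveolar macrophages in their identity. Bhlhe41 was 271 to 429 CPM (median 352), against 21.0 to 53.1 CPM (median 34.4), and Bhlhe40 598 to 798 CPM (median 671), against 50.7 to 126 CPM (median 79.5). Maf, a transcription factor that restrains self-renewal of macrophages, had 0 to 4.08 CPM (median 3.11), against 674 to 1287 CPM (median 1066). Spi1, which encodes the common myeloid factor PU.1, was at 400.1 to 569 CPM (median 469), against 279.6 to 401 CPM (median 349.7), with ranges that just overlapped, and the TGF-beta receptor chain Tgfbr2 was 137 to 203 CPM (median 171), against 237 to 351 CPM (median 267).

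The promoter of Bhlhe41 is shown because its product binds the E-box CACGTG and such a box lies within it. The sequence is the 250 bases before the start on the minus strand, chr6:145865421-145865670, from RefSeq on GRCm38.p6, 5′ to 3′ with the E-box in capitals.
Bhlhe41: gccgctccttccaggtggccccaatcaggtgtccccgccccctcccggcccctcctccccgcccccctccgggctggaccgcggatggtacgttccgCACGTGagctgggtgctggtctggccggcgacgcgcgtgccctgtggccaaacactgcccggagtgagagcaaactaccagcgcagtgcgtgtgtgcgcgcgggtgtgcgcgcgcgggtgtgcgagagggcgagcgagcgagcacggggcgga
Promoters, here the 250 bases before a start, were found for 160 of the 211 higher genes and 152 of the 204 lower genes, and both strands were searched for motifs of which none contains another. CACGTG was in 8.11% of 222 promoters of the higher genes and 3.61% of 194 of the lower genes, against 6.02% of all 32851 promoters. The PU.1 letters GAGGAAGT were in 4.50% and 4.64%, against 2.44% of all promoters. TGCTGA, the core of MAF sites, was in 11.7% and 19.1%, against 16.1%. TTGCGCAA, a palindrome of C/EBP factors, was in 0% and 0.515%, against 0.164%, and the PPAR response element (AGGTCA repeated after any 1 base) in neither group, against 0.0335% of all. These shares are descriptions of letters in a short window and were not tested.

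Genes of lipid handling were more often higher than lower in alveolar macrophages. Of 22 genes described 7 were at least 4-fold higher in all animals and 1, the scavenger receptor Msr1, was lower (list median 1.17 on the log2 scale). All 7 higher genes are also in the list of further alveolar macrophage genes above, so they are not a separate finding. Abcg1, a cholesterol exporter, was 1139 to 1547 CPM (median 1411) in alveolar macrophages, against 21.4 to 44.4 CPM (median 29.5) in interstitial macrophages (log2 difference 5.54 ± 0.31). Abca1, the exporter that loads cholesterol onto apolipoproteins, ran the other way at 17.9 to 149 CPM (median 87.0), against 339 to 454 CPM (median 432). Lpl, the lipase that frees fatty acids from lipoproteins, was 3332 to 3919 CPM (median 3674), against 97.0 to 346 CPM (median 276). The fatty acid carriers Fabp1 (363 to 938 CPM, median 583, against 0 to 4.05 CPM, median 1.123), Fabp4 (471 to 1162 CPM, median 858, against 3.69 to 58.8 CPM, median 14.6) and Fabp5 (471 to 852 CPM, median 717, against 14.2 to 117 CPM, median 43.1) were all higher. Both named proteins of lipid droplets were higher: Cidec, which fuses droplets, was 222 to 334 CPM (median 243), against 0 to 1.17 CPM (median 0), and the droplet coat Plin2 1401 to 1839 CPM (median 1569), against 299 to 403 CPM (median 346). Both the uptake receptor Cd36 (296 to 494 CPM, median 436, against 595 to 891 CPM, median 741) and Msr1 (0 to 26.0 CPM, median 12.4, against 129 to 168 CPM, median 152) had lower medians in alveolar macrophages.

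Scavenger and pattern receptors differed in both directions. Of 20 described, 3 were at least 4-fold higher in every animal (Marco, Olr1 and Clec4n) and 3 lower (Msr1, Cd163 and Stab1), and the list median was 0.03. Marco, the collagenous receptor for particles and bacteria, was 237 to 547 CPM (median 464) in alveolar macrophages, against 0 to 2.26 CPM (median 0.457) in interstitial macrophages. Olr1, a receptor for oxidised lipoprotein, was 806 to 1199 CPM (median 1149), against 0.739 to 22.2 CPM (median 7.97), and the fungal lectin Clec4n 386 to 704 CPM (median 510.1), against 45.1 to 97.0 CPM (median 59.8). The receptors for dying cells were also higher, Axl at 628 to 759 CPM (median 677), against 133 to 222 CPM (median 165), and Mertk at 149.8 to 338 CPM (median 228), against 46.5 to 101 CPM (median 72.9). Mrc1, the mannose receptor, was 646 to 1025 CPM (median 862), against 1302 to 1898 CPM (median 1534), and the pan-macrophage lysosomal protein Cd68 was alike at 439 to 565 CPM (median 513), against 487 to 532 CPM (median 524).

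In the lysosome list 2 of 17 genes were at least 4-fold higher, the collagen-degrading cathepsin Ctsk and the lectin Lgals3, and none was lower by that margin (list median 0.24). Ctsk was 351 to 427 CPM (median 390.0) in alveolar macrophages, against 0 to 16.5 CPM (median 1.67) in interstitial macrophages. Ctsd, an aspartic protease, was 3146 to 3934 CPM (median 3579), against 553 to 1122 CPM (median 867), while the cysteine protease Ctsb was 869.6 to 1021 CPM (median 919), against 2279 to 3045 CPM (median 2797). Lyz2, the lysozyme of macrophages, was 8891 to 11838 CPM (median 9462), against 4403 to 5381 CPM (median 4815).

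Genes of MHC class II presentation were low in alveolar macrophages. Of 9 MHC class II genes 6 were at least 4-fold lower in every animal (list median -3.74). H2-Eb1, a class II beta chain, had 24.9 to 72.5 CPM (median 39.4) in alveolar macrophages, against 2092 to 4291 CPM (median 2643) in interstitial macrophages. H2-Aa had 22.5 to 211 CPM (median 111), against 2354 to 4848 CPM (median 3057), and the invariant chain Cd74 199 to 1225 CPM (median 485), against 6722 to 13255 CPM (median 9101). Costimulatory Cd86 had 7.43 to 36.7 CPM (median 17.0), against 216 to 274 CPM (median 262), and Cd40 0 to 4.03 CPM (median 0), against 77.8 to 89.5 CPM (median 84.8). H2-DMa, which loads peptide onto class II, had the higher median in alveolar macrophages, at 257 to 338 CPM (median 302), against 168 to 313 CPM (median 199.6).

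Most chemokines were lower as well: 11 of 20 genes by at least 4-fold in all animals and none higher by that margin (list median -3.02). Ccl2, which draws monocytes, was 58.1 to 323 CPM (median 165) in alveolar macrophages, against 2969 to 4287 CPM (median 3733) in interstitial macrophages. Its neighbour Ccl7 was 20.4 to 96.7 CPM (median 39.2), against 2699 to 3243 CPM (median 2952), and Ccl4 52.0 to 519.7 CPM (median 205), against 6316 to 10759 CPM (median 7774). Against this direction Ccl6 was 2884 to 5524 CPM (median 3799.8), against 339.8 to 1011 CPM (median 673), and the neutrophil attractant Cxcl3 64.5 to 420.0 CPM (median 284), against 16.3 to 143 CPM (median 56.4), both at least 2-fold higher in all 6 animals. Cxcl2, another neutrophil attractant, was 2171 to 3829 CPM (median 3491), against 5427 to 7363 CPM (median 6983).

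Among cytokines and growth factors 2 of 14 were at least 4-fold higher and 2 lower. Il18, stored as a precursor in macrophages and epithelium, was 330.4 to 510.4 CPM (median 437) in alveolar macrophages, against 11.8 to 28.4 CPM (median 23.1) in interstitial macrophages. The secreted phosphoprotein Spp1, osteopontin, was 659 to 1498 CPM (median 1235), against 38.5 to 162 CPM (median 63.2). Il10, the anti-inflammatory cytokine, had 0 to 8.30 CPM (median 0), against 335 to 468 CPM (median 408), and the growth factor Igf1 0 to 35.0 CPM (median 14.3), against 285 to 486 CPM (median 341). Tnf was 510.3 to 829.9 CPM (median 659), against 666 to 976 CPM (median 821), and Il1b 444 to 940.4 CPM (median 615), against 785 to 1832 CPM (median 1244), so the ranges of both inflammatory cytokines overlapped between the types.

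**Figure D3:**
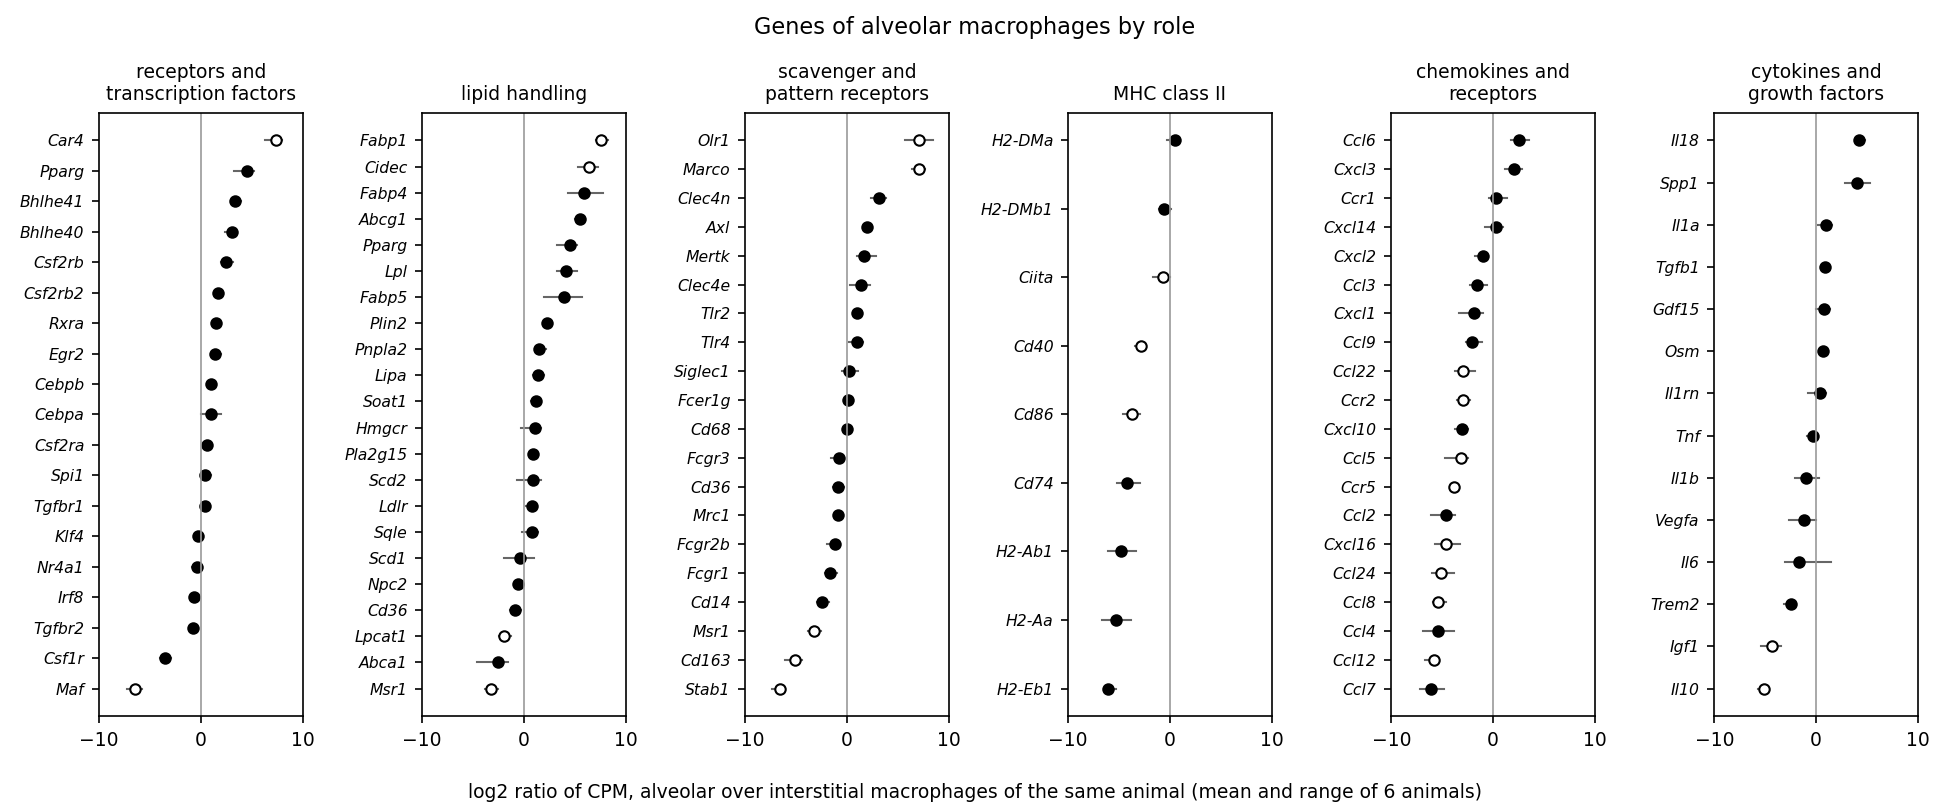
Each row is a gene and each panel a list named by role. The horizontal axis is the log2 ratio of CPM in alveolar over interstitial macrophages of the same tumor-bearing animal. Points are means and lines ranges of 6 animals, and open points mark genes with fewer than 3 UMIs in either type in at least 1 animal, whose ratios rest on a floor of 3 UMIs. MHC class II genes lie left of 0 except H2-DMa, and lipid genes lie mostly right of it.

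Other lists were mixed. Of 10 complement genes Itgax, the CD11c integrin chain, was at least 4-fold higher in all animals at 266 to 478 CPM (median 336) in alveolar macrophages, against 12.9 to 50.2 CPM (median 22.1) in interstitial macrophages, and Itgam, the CD11b chain, was lower at 0 to 4.99 CPM (median 2.01), against 179.5 to 238 CPM (median 198), as was the anaphylatoxin receptor C3ar1. Proteases and clotting factors had 4 of 16 higher, among them F7 (242 to 387 CPM, median 339.6, against 0 to 1.83 CPM, median 0.282), which starts coagulation, and F10 (141 to 251 CPM, median 198, against 0 to 7.32 CPM, median 0.821), and 4 lower, among them the gelatinase Mmp9 (0 to 12.4 CPM, median 3.29, against 271 to 422 CPM, median 329). Of 18 inhibitory receptors and phosphatases Cd300lf (290.1 to 404 CPM, median 315, against 5.84 to 24.3 CPM, median 9.28) and Pilra (171 to 235 CPM, median 212, against 14.7 to 35.7 CPM, median 21.1) were higher and Clec12a was lower. Sirpa, the receptor of the don't-eat-me signal CD47, was 857 to 1108 CPM (median 954), against 403 to 580.0 CPM (median 466), and Ptpn6, the phosphatase that inhibitory receptors recruit, 224 to 306 CPM (median 268), against 122 to 175 CPM (median 134). Of 10 interferon-stimulated genes Isg15, Ifitm3 and Ly6e were lower and none higher. Of 19 iron and oxidative stress genes glutathione reductase Gsr was higher (225 to 432 CPM, median 307, against 30.3 to 48.6 CPM, median 34.4) and the metal transporter Slc11a1 lower, and of 18 immediate early and heat shock genes Hspb1 was lower.

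Members of the same library differed among themselves in the level of many genes. Spread was measured within each tumor-bearing library as the residual variance of a gene's UMIs given the depth of the cell, over 5168 genes with a mean of at least 0.2 UMIs per cell, with a median of 1.13 in LAIR1KO and 1.13 in WT. Cxcl2 had a residual variance of 54.0 in LAIR1KO and 50.7 in WT, and its median per cell was 8 UMIs in LAIR1KO and 16 in WT, its highest value 196 and 236 UMIs. Mt1, a zinc-binding metallothionein, had 80.2 in LAIR1KO and 44.9 in WT, with medians of 49 and 34 UMIs and highest values of 526 and 294. Cd74 was low in most cells and high in a few: the 10% of cells with most UMIs held 79.2% of all Cd74 UMIs in LAIR1KO and 68.9% in WT, and the medians were 0 and 1 UMI. For S100a9, a calcium-binding protein of neutrophils, that share was 69.6% in LAIR1KO and 65.0% in WT, with single cells at up to 106 and 44 UMIs; whether neutrophil RNA in the droplets had a part was not tested. The heat shock genes Hspa1a and Hspa1b and the chemokines Cxcl1 and Ccl3 completed the 10 most spread genes together with Actb and Malat1. This ranking used the smaller of a gene's values in the 2 libraries, and some other genes were more spread in LAIR1KO alone. Mgp, of the fibroblast and pericyte markers, had 96.5 in LAIR1KO and 18.3 in WT, with highest values of 243 and 67 UMIs. The 10% of cells with most UMIs held 86.5% of its UMIs in LAIR1KO and 69.4% in WT. The 6 genes of the choice, given as values only, had 13.9 in LAIR1KO and 10.7 in WT for Chil3, 6.93 and 8.84 for Plet1, 4.94 and 4.39 for Ear1, 3.75 and 2.56 for Krt79, 1.20 and 1.45 for Atp6v0d2, and 1.22 and 1.09 for Siglecf.

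**Figure D4:**
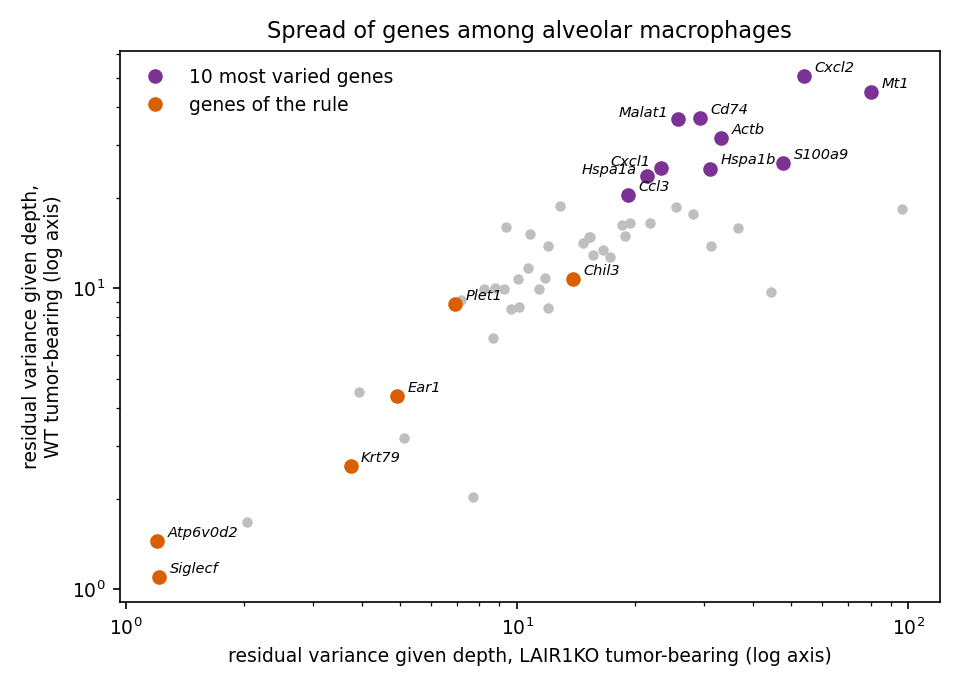
The axes give the residual variance given depth of a gene among alveolar macrophages of the LAIR1KO (horizontal) and WT (vertical) tumor-bearing libraries, both on log scales. Purple points are the 10 most spread genes, orange points the 6 genes of the choice and grey points other genes of the lists and the next most spread genes. Cxcl2 and Mt1 lie at the upper right, and Siglecf and Atp6v0d2 at the lower left, near the median gene at 1.13.

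Cell cycle transcripts were compared at equal depth. After thinning each cell to 2000 UMIs, at least 3 UMIs of 20 cell cycle genes were found in 40%, 39.3% and 38.6% of members in the LAIR1KO tumor-bearing animals, against 53.8%, 41.9% and 42.9% in the WT animals (39.3 ± 0.682% and 46.2 ± 6.63%, SD, n = 3 each). The groups did not overlap, and the exact permutation test gave its smallest p of 0.1. With at least 2 UMIs the difference of -6.91 percentage points turned to 2.36 (exact permutation p = 0.7), and without WT replicate 1 it was -3.09. Under another hashtag rule, given below, it was -4.03 points (exact permutation p = 0.9), and without thinning -0.698 points. Interstitial macrophages had 34.6 ± 1.83% in LAIR1KO and 34.6 ± 4.57% in WT. The list holds 4 genes that resting cells also transcribe, Hmgb2, H2afz, Tubb5 and Stmn1. Without them, a list shortened after its values were seen, the share was 0%, 0% and 4.55% in the LAIR1KO animals, against 0%, 0% and 10.7% in the WT animals (difference -2.06 points, exact permutation p = 1), so these cells, 2 in LAIR1KO and 3 in WT, all came from replicate 3 of their group. Over all members deep enough to be thinned, with or without a single hashtag, they were 4 of 114 in LAIR1KO (3.51%) and 3 of 103 in WT (2.91%). Unthinned, 95.6% of LAIR1KO and 97.1% of WT members reached 3 UMIs of the full list.

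Gene levels in the 9 members of normal lung can be set beside those of tumor-bearing lung only as sums, with no test, because there was 1 library per group. The sums were 1014729 UMIs in LAIR1KO tumor-bearing and 76301 in LAIR1KO normal members, and 949943 in WT tumor-bearing and 23187 in WT normal members. Among genes with at least 50 UMIs in the higher library, with the genes of the choice left out, genes were ranked by the smaller of their ratios in the 2 genotypes, and Il1b, Tnf, Il1a, Il1rn and Cxcl3 led in the tumor-bearing direction and Cd74, Jun, Junb, Malat1 and Klf6 in the normal direction. In the tumor-bearing direction 502 genes were ranked, and in the normal direction 8. These counts cannot be compared, because the floor of 50 UMIs asks for a far higher CPM in the shallower normal sums. There 3 UMIs stand for 39.3 CPM in LAIR1KO and 129 CPM in WT, against 2.96 and 3.16 CPM in tumor-bearing members. Il1b, Il1a and Cxcl3 had 0 UMIs in WT normal members, set to 3 for the ratio. Within 1 genotype other genes had larger ratios than Il1b, which stood at log2 2.50 in LAIR1KO and 2.49 in WT. Car4 had log2 2.74 in LAIR1KO, with 5 UMIs in LAIR1KO normal members, against -0.91 in WT. In LAIR1KO this was below Il1a (3.00) and Cxcl3 (2.81). Fabp4 had log2 2.64 in WT, with 0 UMIs in WT normal set to 3, against 0.61 in LAIR1KO. Il1b was at 518 CPM (exact 95% counting interval 475 to 565) in LAIR1KO tumor-bearing members, against 91.7 (36.9 to 189) in LAIR1KO normal members, and at 725 (672 to 782) in WT tumor-bearing members, against 0 (0 to 159) in WT normal members. Tnf was at 676 (626 to 729) in LAIR1KO tumor-bearing members, against 209.7 (120 to 341) in LAIR1KO normal members, and at 595 (547 to 646) in WT tumor-bearing members, against 129 (26.7 to 378) in WT normal members. In both genes the intervals of tumor-bearing and normal members did not overlap, but both genes were picked by this same ratio. Il1a was at 421 CPM in LAIR1KO tumor-bearing and 52.4 CPM in LAIR1KO normal members, and at 360.02 CPM in WT tumor-bearing and 0 CPM in WT normal members. The IL-1 antagonist Il1rn was at 538 (494 to 585) in LAIR1KO tumor-bearing members, against 131 (62.8 to 241) in LAIR1KO normal members, and at 463 (421 to 509) in WT tumor-bearing members, against 173 (47.0 to 442) in WT normal members, so its intervals overlapped in WT. In the normal direction Cd74 was at 402 (364 to 443) in LAIR1KO tumor-bearing members, against 695 (520 to 908) in LAIR1KO normal members, and at 663 (612 to 717) in WT tumor-bearing members, against 2803 (2164 to 3573) in WT normal members. Jun, an immediate early factor, was at 927 in LAIR1KO tumor-bearing and 1324 CPM in LAIR1KO normal members, and at 848 in WT tumor-bearing and 3493 CPM in WT normal members. Of the 2 WT normal members 1 carried 2 hashtags, had no Ear1 UMI and had 11 UMIs of H2-Aa. That cell held 9451 of the 23187 UMIs of the WT normal sum. Of the 7 LAIR1KO normal members 1 held 34032 of the 76301 UMIs, with 13 of Mki67 and 19 of Top2a, genes of dividing cells. The intervals cover counting error only and not the spread between cells or between animals. Il1b had a residual variance of 12.9 among LAIR1KO and 18.7 among WT tumor-bearing members, measured as above. Intervals that do not overlap are therefore not a test of tumor-bearing against normal lung.

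Apart from Lair1 itself, no gene passed the test between LAIR1KO and WT alveolar macrophages of tumor-bearing lung. In 3785 genes tested with edgeR's quasi-likelihood test on UMIs summed per animal (26, 28 and 44 cells in LAIR1KO, 26, 33 and 28 in WT), Lair1 fell by 6.83 ± 0.89 (SE) on the log2 scale with a Benjamini-Hochberg adjusted p of 0.00579, which is 0.0264% of genes tested. Because LAIR1KO members had 0 Lair1 UMIs, the size of this log2 value depends on the small count that edgeR adds. The counts themselves give a fall of at least 15.1-fold. At an unadjusted p under 0.05 there were 237 genes, DESeq2 also called 1, and 459 genes (12.1%) had groups that did not overlap. Leaving out LAIR1KO tumor-bearing replicate 2 or WT tumor-bearing replicate 1 left 0 calls, with 252 and 246 genes at an unadjusted p under 0.05, and Lair1 at an edgeR adjusted p of 0.0723 and 0.465; leaving out LAIR1KO replicate 1 or 3 or WT replicate 2 or 3 gave 4, 9, 3 and 8 calls. Over all alternatives tried, the adjusted p of Lair1 from edgeR or DESeq2 ran from 1.93e-09 to 0.465. Of the 17 lists of macrophage genes, that of inhibitory receptors, which holds Lair1, had 1 member past the threshold and the other lists had none, and the 20 further alveolar macrophage genes split into 10 above and 10 below 0 (median log2 -0.02, against -0.01 over all genes tested).

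The genes nearest to the threshold did not pass and are given as values. They were picked among genes of at least 50 CPM whose groups did not overlap, as 12.1% of all genes tested did not. Bag3 (mm10, chromosome 7, 128523616 to 128546981, plus strand), a co-chaperone of heat shock proteins, was at 98.7, 116 and 54.9 CPM in LAIR1KO members, against 20.4, 18.6 and 28.2 CPM in WT members (edgeR log2 1.94 ± 0.39 SE, adjusted p = 0.144). Insig1, which restrains sterol synthesis, was at 170.5, 166 and 167 CPM in LAIR1KO, against 69.4, 100.4 and 92.7 CPM in WT (edgeR log2 0.95 ± 0.21 SE, adjusted p = 0.194). The interferon-regulated factor Irf1 was at 94.2, 83.0 and 89.9 CPM in LAIR1KO, against 32.7, 40.9 and 40.3 CPM in WT, and Ch25h, the enzyme that makes the oxysterol 25-hydroxycholesterol, at 117, 158 and 105 CPM, against 20.4, 37.2 and 80.6 CPM. Fabp5 was at 852, 759 and 839 CPM in LAIR1KO, against 674, 561 and 471 CPM in WT (edgeR log2 0.55 ± 0.14 SE, adjusted p = 0.259). The ubiquitin adaptor Cacybp was at 108, 124 and 99.9 CPM in LAIR1KO, against 57.2, 59.5 and 40.3 CPM in WT. Bag3 passed in some alternatives, with an edgeR adjusted p of 0.000118 with no filter on low counts, 0.00446 without LAIR1KO replicate 3 and 0.0336 when fitted with interstitial macrophages, and it ranged up to 0.620 without WT replicate 1. With no filter Insig1, Irf1, Ch25h, Cacybp and Fabp5 also passed, and Ch25h did so without WT replicate 3 (edgeR adjusted p = 0.0253).

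On the other side, Ccl2 was at 89.7, 58.1 and 137 CPM in LAIR1KO members, against 245, 323 and 193 CPM in WT members (edgeR log2 -1.32 ± 0.26 SE, adjusted p = 0.144). Ssh2, a phosphatase that acts on the actin regulator cofilin, was at 49.3, 45.6 and 57.4 CPM in LAIR1KO, against 147, 115 and 109 CPM in WT (edgeR log2 -1.22 ± 0.25 SE, adjusted p = 0.144). The protease inhibitor Slpi was at 597, 535 and 564 CPM in LAIR1KO, against 825, 736 and 919 CPM in WT, and the zinc finger repressor Zbtb4 at 49.3, 53.9 and 32.5 CPM, against 122, 96.6 and 84.6 CPM. Fosb, an immediate early factor, was at 449, 415 and 627 CPM in LAIR1KO, against 906, 1045 and 649 CPM in WT. Sftpc, the surfactant protein C of type 2 epithelium, was at 121, 178 and 199.7 CPM in LAIR1KO, against 298, 268 and 342 CPM in WT, and moved with the type 2 marker sum given above, of which it is a part; the share of type 2 RNA in this difference was not tested. None of these 6 passed the edgeR test (adjusted p 0.144 to 0.236), and all but Slpi did with no filter on low counts. Ccl2 and Fosb passed without LAIR1KO replicate 3 (edgeR adjusted p 0.00446 and 0.0145) or WT replicate 3 (0.0259 for both), and Ssh2 when fitted with interstitial macrophages (0.0336). Ccl2 ranged up to an adjusted p of 0.731, under another hashtag rule, and Ssh2 up to 0.743, with DESeq2.

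**Figure D5:**
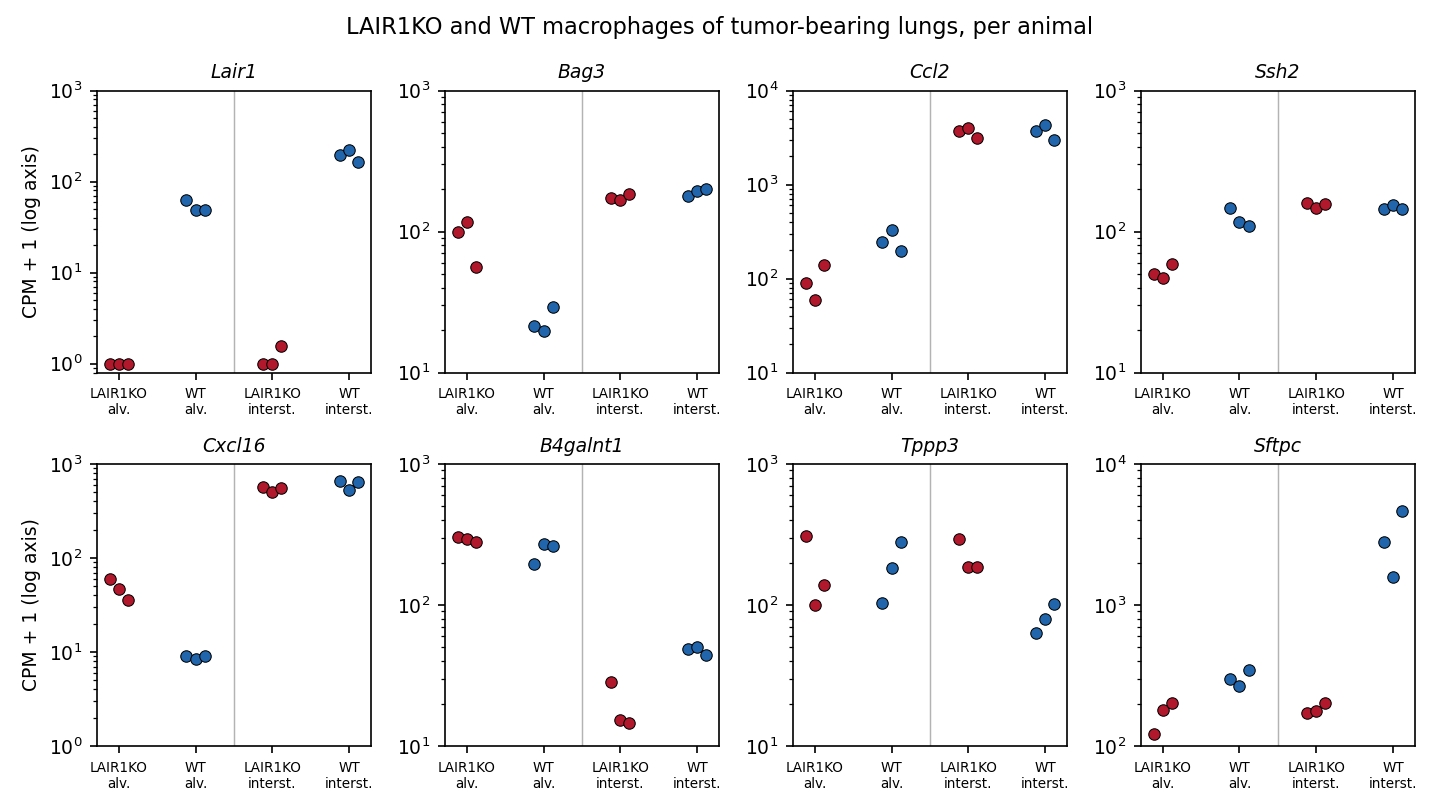
Each point is 1 tumor-bearing animal, LAIR1KO in red and WT in blue, with alveolar macrophages left and interstitial macrophages right of the line in each panel. The vertical axis gives CPM + 1 on a log scale, with its own range in each panel. Lair1 is at 0 CPM in all LAIR1KO alveolar macrophages, and the genotypes do not overlap for Bag3, Ccl2, Ssh2 and Cxcl16 in alveolar macrophages and overlap in interstitial macrophages.

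The last question was whether the effect of the LAIR1KO genotype differed between the macrophage types, tested as an interaction with the animal as a block. In interstitial macrophages alone, which gave more cells and UMIs, edgeR called 46 of 8062 genes (0.571%) between LAIR1KO and WT, 20 higher (0.248%) and 26 lower (0.323%), with 618 at an unadjusted p under 0.05. Without cells holding transcripts of other types these were 11 calls, so the counts of calls in the 2 types were not compared. In 6679 genes edgeR's quasi-likelihood test found 11 (0.165%) with Benjamini-Hochberg adjusted p under 0.05, of which 7 (0.105%) had the higher LAIR1KO effect in alveolar macrophages and 4 (0.0599%) the lower one; 421 had an unadjusted p under 0.05 and DESeq2 called 2. Cxcl16 (mm10, chromosome 11, 70453983 to 70459984, minus strand), the membrane-bound chemokine that takes up oxidised lipid, was at 58.3, 45.6 and 35.0 CPM in LAIR1KO alveolar macrophages, against 8.17, 7.43 and 8.06 CPM in WT, and at 565, 498 and 557 CPM in LAIR1KO interstitial macrophages, against 655, 522 and 643 CPM in WT (interaction log2 2.64 ± 0.48 SE, adjusted p = 0.0146). The WT alveolar values rest on 2 UMIs per animal. Bag3 had 171, 166 and 183 CPM in LAIR1KO interstitial macrophages, against 179, 192 and 199 CPM in WT, with the alveolar values given above (interaction log2 2.04 ± 0.39 SE, adjusted p = 0.0249). In these genes the genotypes did not overlap in alveolar macrophages and overlapped in interstitial ones. For Tppp3, a tubulin-binding protein, the reverse held: 309.5, 99.6 and 137 CPM in LAIR1KO alveolar macrophages, against 102, 182 and 278 CPM in WT, and 291, 184 and 186 CPM in LAIR1KO interstitial macrophages, against 61.9, 78.7 and 100.5 CPM in WT (interaction log2 -1.52 ± 0.26 SE, adjusted p = 0.0109). B4galnt1, a ganglioside synthase, was at 301, 295 and 277 CPM in LAIR1KO alveolar macrophages, against 196, 271 and 262 CPM in WT, and at 27.4, 14.2 and 13.5 CPM in LAIR1KO interstitial macrophages, against 47.9, 49.6 and 43.6 CPM in WT (interaction log2 1.62 ± 0.29 SE, adjusted p = 0.0146). Prkar2b, which encodes a subunit that holds protein kinase A inactive, was at 112, 166 and 157 CPM in LAIR1KO alveolar macrophages, against 196, 201 and 177 CPM in WT, and at 32.0, 36.5 and 38.4 CPM in LAIR1KO interstitial macrophages, against 14.0, 21.6 and 14.8 CPM in WT.

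The other 5 named genes of that test are, or follow, markers of other cells, and stood apart between genotypes in the interstitial macrophages. Sftpc was at 171, 176 and 201 CPM in LAIR1KO interstitial macrophages, against 2785, 1573 and 4630.2 CPM in WT, and Sftpa1, Napsa and the lipid desaturase Scd1, which type 2 cells also express, had the same order. The 7 type 2 markers together were 2.59 to 3.17 per 10000 UMIs in LAIR1KO interstitial macrophages and 22.9 to 59.0 in WT, while in alveolar macrophages they were 1.66 to 2.53 and 3.23 to 4.27. S100a8, a neutrophil gene, was at 238, 314 and 126 CPM in LAIR1KO interstitial macrophages, against 38.5, 36.7 and 45.8 CPM in WT, and the 8 neutrophil markers were 6.15 to 10.8 per 10000 in LAIR1KO and 4.996 to 5.83 in WT. When cells with at least 1% of their UMIs in a list of another cell type were left out, an alternative added after seeing the data, edgeR called 14 of 6499 genes (0.215%), 7 in each direction (0.108%). Tppp3, B4galnt1, Cxcl16, Bag3, Prkar2b and Ccl6 were among them, and Sftpc, Sftpa1, Napsa, Scd1 and S100a8 were not (interaction log2 -0.12, 0.50, 0.39, -0.32 and -0.28). Sftpc, Sftpa1 and S100a8 are in the lists by which these cells were left out, so their values after it follow in part from that choice. The count of calls depended on single animals: it was 37, 30 and 22 without LAIR1KO replicate 1, 2 or 3, and 7, 10 and 7 without WT replicate 1, 2 or 3. The calls also depended on the method: DESeq2 called Sftpa1 and Sftpc alone, and under another hashtag rule (the highest hashtag at least 2 times the next and at least 10 UMIs) edgeR called Tppp3 and Prkar2b alone. The adjusted p of Cxcl16 was 0.370 with DESeq2 and 0.1799 with edgeR under that rule, and that of Bag3 0.370 and 0.0631.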

How the data were processed

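The authors deposited matrices of raw counts, that is UMIs per gene and per hashtag. The submitters' processing notes name Cell Ranger 4.0.0, STAR, R 4.0.0, Seurat 3.2.0 and the build mm10. Members, gene lists and tests were chosen with earlier results of these data known. Cells were assigned to hashtags with HTODemux (Seurat 5.3.0, R 4.3.3, positive quantile 0.99), and only cells with a single hashtag entered values per animal. That hashtag replicates are separate animals is not stated by the labels, so p-values measure the spread between these samples, which may be technical. Scrublet (scanpy 1.11.5, Python 3.11.15) marked 211 cells (1.34%), among them 2 members from tumor-bearing lung and 1 of the 2 WT normal members. It marked 0.0872% of the LAIR1KO tumor-bearing library and so did not work there, and marked cells were kept. The comparator, interstitial macrophages, had at least 10 UMIs summed over C1qa, C1qb and C1qc, at most 1 of the 6 genes of the choice and no Cdh5.

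UMIs were summed per animal with at least 10 cells, giving 222917 to 400536 UMIs for alveolar and 493616 to 1773070 for interstitial macrophages. Sums were tested with edgeR 4.0.16 (quasi-likelihood, TMM, filterByExpr, Benjamini-Hochberg adjusted p under 0.05) and, as an alternative, DESeq2 1.42.0; the tests were first tried on simulated counts. CPM are UMIs per 1000000 of all 32285 genes, and ratios between cell types use a floor of 3 UMIs per animal. Shares were tested with exact two-sided permutation tests (scipy 1.17.1). Intervals and floors cover counting error only. The SE printed with an edgeR value is its absolute log2 value divided by the square root of its F statistic. Alternatives were another normalization, no filter, another hashtag rule, doublets left out, stricter members, each animal left out and cells of mixed type left out.

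Named were Lair1, up to 10 genes past a threshold in each test, the next 6 in each direction without overlap and with at least 50 CPM, the 10 highest and 10 lowest ratios between cell types at 100 CPM or more, 5 genes in each direction between tumor-bearing and normal members, the 10 most spread genes, and list members by role. Genes linked to sex, of ribosomes or mitochondria, and unnamed models were skipped. Ccl6 was named for its place just past the 10. Clec7a, of the receptor list, was not analysed here. Results of 2 genes are not reported here.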

Additional observations from a re-analysis of the deposited data

Results flagged for a closer look

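For 11 genes the effect of LAIR1KO against WT differed between alveolar and interstitial macrophages of tumor-bearing lung by the interaction term of edgeR (Benjamini-Hochberg adjusted p under 0.05), and each is given with its interaction log2 value, positive where the LAIR1KO effect was the higher one in alveolar macrophages. Those of genes that macrophages of either type carry were 2.64 for the chemokine Cxcl16, 2.04 for the co-chaperone Bag3, 1.62 for the ganglioside synthase B4galnt1, -1.52 for the tubulin-binding Tppp3, -1.48 for the kinase subunit Prkar2b and -1.0 for the chemokine Ccl6. Ccl6 was at 2884, 4897 and 3478 CPM in LAIR1KO alveolar macrophages, against 3772, 5524 and 3827 CPM in WT, and at 866, 1011 and 731 CPM in LAIR1KO interstitial macrophages, against 615, 604 and 339.8 CPM in WT. The values of genes known from other cells were 3.08 for Sftpc, 3.69 for Sftpa1, 2.63 for the protease Napsa and 2.22 for the desaturase Scd1, all expressed by type 2 epithelium, and -2.20 for the neutrophil gene S100a8. In interstitial macrophages the type 2 marker sum was 2.59 to 3.17 per 10000 UMIs in LAIR1KO and 22.9 to 59.0 in WT, and the neutrophil sum 6.15 to 10.8 in LAIR1KO and 4.996 to 5.83 in WT.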

How the results depend on the processing

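No paired analysis was possible because the labels give no replicate numbers and hashtag numbers only name animals within a library; in the interaction both cell types of an animal were blocked. For single genes 411 values under the alternatives stayed the same, 38 lost and 19 gained a call, 4 moved and 6 reversed. In tested genes the same means that direction and side of the threshold were kept. The 411 also include ratios between the cell types, which had no test and no threshold. Between LAIR1KO and WT alveolar macrophages the count of 1 became 55 with no filter on low counts and 4 when fitted with interstitial macrophages, and 0 to 9 with 1 animal left out; Lair1 then ran from -6.91 to -6.69 on the log2 scale and was lost without LAIR1KO replicate 2 (-6.86) or WT replicate 1 (-6.73). The 11 interaction calls became 64 with no filter, 2 with DESeq2, 2 under another hashtag rule, 5 without Scrublet doublets (a caller that did not work in the LAIR1KO library), and 7 to 37 with 1 animal left out. Sftpc reversed to -0.15 without Scrublet doublets and -0.12 without cells of mixed type, Sftpa1 to -0.53 under the other hashtag rule, and Scd1 to -0.62, -0.32 and -0.32 under the other hashtag rule, without Scrublet doublets and without cells of mixed type. The genotype difference in share of cells in tumor-bearing lung ran from -0.219 to 0.979 points with 1 animal left out, and that in cell cycle transcripts turned to 2.36 points with at least 2 UMIs. At 2-fold, 496 genes were higher and 481 lower in alveolar macrophages. The causes were not tested. Depth limits the low genes: 3 UMIs stand for 7.49 to 13.5 CPM in an animal's alveolar macrophages, and normal lungs gave too few members for a test of genes.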
